A study of Rattus norvegicus with 12 samples.

Results

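The 10 genes Plvap, Tek, Tie1, Kdr, Flt1, Emcn, Pecam1, Sox17, Ehd3 and Cldn5 are known for their expression in the cells that line blood vessels, and were followed through rat kidney development and into cultured kidney tissue. A probe set, the group of array features that reads 1 transcript, was taken for a gene when the platform annotation gave it that gene's symbol and no other. This gave 15 probe sets for 10 of the 14217 genes so named, and 12 of the 15 passed the filter on low signals. The genes were chosen by their signal in the cultured tissue against the kidney stages, as lost or kept there, so these levels are given as a description, with no test. In that tissue 8 of the 10 were below every kidney array, as were 5.58% of all probe sets. The fitted differences of the 8 from E13 ran from -0.69 (Pecam1) to -3.34 (Plvap) in log2(signal + 271). For Flt1 the low level rests on 1 of 3 probe sets. For Pecam1, 1 cultured array (1335) lay just under the lowest kidney array (1336). Cldn5 was 6.11-fold above E13, and Ehd3 was within its dim E13 range. In these tissue samples fewer endothelial cells and less RNA per endothelial cell cannot be told apart.

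RNA was hybridised to 12 Affymetrix arrays in 4 groups. Kidneys were processed straight after dissection at embryonic day 13 (E13, n = 3) and embryonic day 18 (E18, n = 4), and kidneys were also taken 4 weeks after birth (Wk4, n = 3). The fourth group (n = 2), called recombined tissue here, was made of non-branched UBs that had formed in vitro, joined with MM and cultured for 6 days. In kidney biology these letters stand for the ureteric bud, the epithelium of the future collecting ducts, and the metanephric mesenchyme, the source of the nephrons. The design asked whether such tissue follows the normal developmental course. The labels give no strain, sex, mutant allele or drug for any group, and do not say from which age the mesenchyme came, whether kidneys were pooled, or whether replicates were separate animals or cultures. The p-values below therefore measure the spread between these arrays, which may be technical.

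The vessels of the kidney form while its tubules branch. The mesenchyme releases VEGF-A, which acts on the receptor tyrosine kinase Kdr (VEGF receptor 2), while Flt1 (VEGF receptor 1) binds the same ligand and its soluble form holds the ligand back. Tek (Tie2) is the angiopoietin receptor, and Tie1 is its partner in the same family. Glomerular and peritubular capillaries are specialised: fenestrated capillaries carry Plvap in their diaphragms, the glomerular endothelium is known for Ehd3, and Cldn5 seals tight junctions in many vessels.

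The array medians spanned 799 to 1020 signal units, and with 2 to 4 arrays a group the precision of each value is limited. The embryonic arrays fell into sets that no label gives: the leading component of the residuals (47.7% of their variance) put E13 replicate 1 with E18 replicates 1 to 3 (set 1), and E13 replicates 2 and 3 with E18 replicate 4 (set 2). Values within these sets are given beside the results they touch. The files give no detection calls, so a fold against a dim culture signal is a ratio of deposited values, not of levels shown to be above background.

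Promoters are shown as a description of sequence, and a link between their letters and the signals in culture was not tested. RefSeq's table (assembly GRCr8) held promoters for 7 of the 10 genes, namely Plvap, Tie1, Kdr, Flt1, Emcn, Ehd3 and Cldn5; Tek, Pecam1 and Sox17 were not matched. The 250 bases before the annotated start are printed below for 4 of them, read 5′ to 3′ along the gene's strand. They are the gene furthest below E13 in culture (Plvap), an angiopoietin receptor family member (Tie1), a gene close to the mean course of the 9 (Emcn) and Cldn5. Capitals mark the letters AGGAAG or CCGGAA, 6-letter motifs taken for ETS factors, on either strand, so that CTTCCT is AGGAAG on the other strand. Shorter or other forms of the ETS motif were not searched and are not marked. The windows are chr16:18231280-18231529 on the minus strand for Plvap, chr5:137304982-137305231 on the minus strand for Tie1, chr2:228564289-228564538 on the plus strand for Emcn and chr11:95718599-95718848 on the minus strand for Cldn5, all upstream of the transcribed gene.
Plvap: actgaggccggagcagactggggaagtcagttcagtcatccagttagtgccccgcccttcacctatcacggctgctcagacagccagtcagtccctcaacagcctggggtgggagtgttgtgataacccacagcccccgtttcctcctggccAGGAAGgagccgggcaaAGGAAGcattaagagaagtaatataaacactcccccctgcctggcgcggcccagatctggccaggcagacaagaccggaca
Tie1: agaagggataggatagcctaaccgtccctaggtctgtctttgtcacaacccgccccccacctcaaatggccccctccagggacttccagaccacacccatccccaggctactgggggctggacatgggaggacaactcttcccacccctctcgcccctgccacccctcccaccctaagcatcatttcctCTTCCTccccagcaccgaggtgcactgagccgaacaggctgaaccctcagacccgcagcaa
Emcn: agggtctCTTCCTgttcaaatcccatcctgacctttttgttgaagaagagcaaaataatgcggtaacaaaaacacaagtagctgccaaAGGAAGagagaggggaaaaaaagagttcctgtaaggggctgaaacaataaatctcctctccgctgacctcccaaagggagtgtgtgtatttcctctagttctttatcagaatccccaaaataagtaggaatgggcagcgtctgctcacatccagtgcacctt
Cldn5: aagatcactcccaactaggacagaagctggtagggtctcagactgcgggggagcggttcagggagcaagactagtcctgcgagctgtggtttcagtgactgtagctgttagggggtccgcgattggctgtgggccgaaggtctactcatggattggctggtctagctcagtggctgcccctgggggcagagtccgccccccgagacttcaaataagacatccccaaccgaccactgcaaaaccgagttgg

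At least 1 of these ETS motifs was found in 5 of the 7 promoters, against 38.4% of the 33469 promoters of the table at the same length. Since the genes were chosen by their signal in culture and only 7 promoters were at hand, nothing is read from this count. AGGAAG was in 4 (Plvap, Tie1, Flt1 and Emcn; 29.5% of all promoters) and CCGGAA in 1 (Kdr; 12.6% of all). The SOX motif AACAAT was in 1 (Emcn; 10.3% of all), and the GATA motif AGATAA was in 0 (10.3% of all). Neither ETS motif lies in the printed Cldn5 window or in that of Ehd3, which says only that these letters are not in those windows. A match is a description of the sequence, and no binding was measured.

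**Figure D1:**
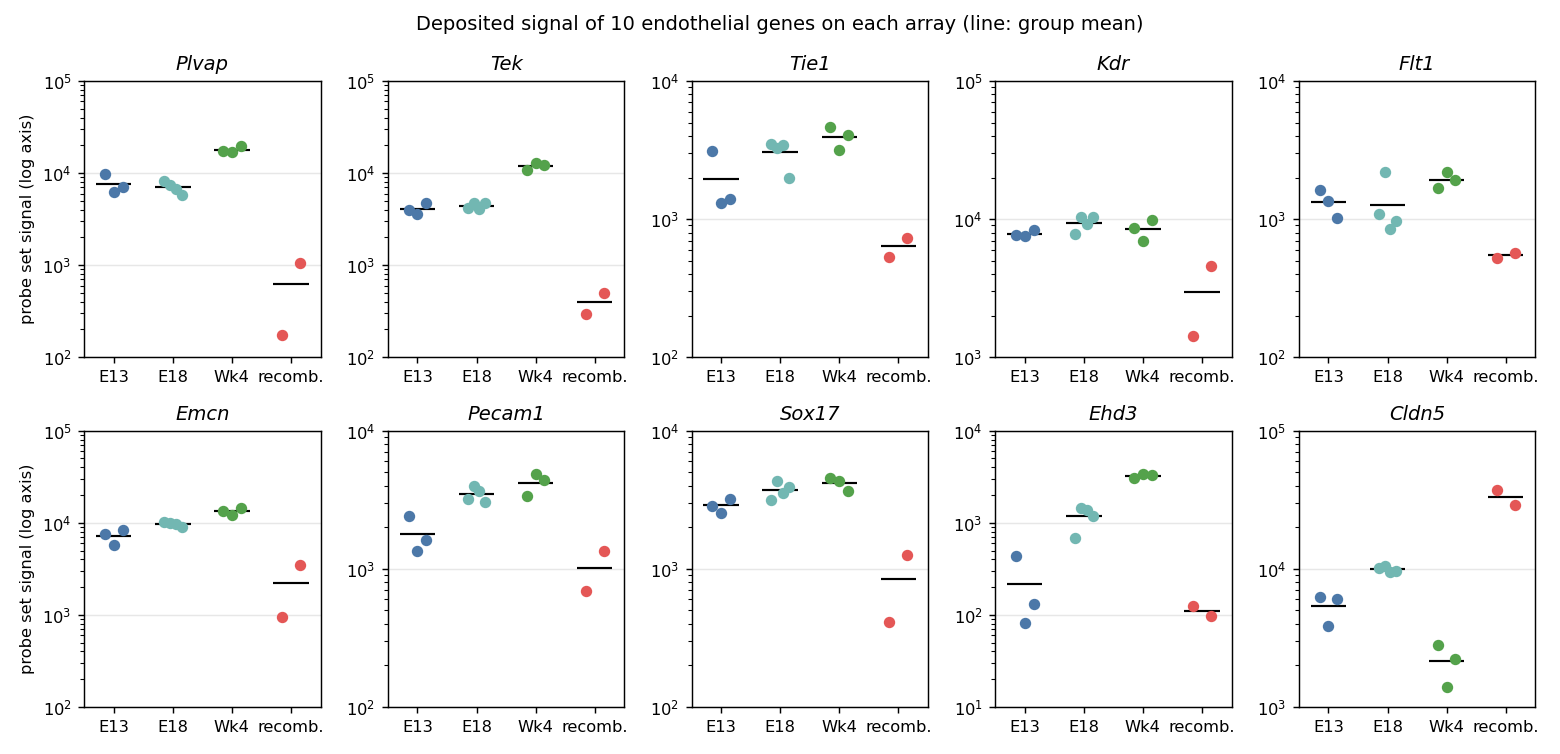
Deposited signal (log axis) of each gene's main probe set on every array, by group; points are arrays and lines group means. Both recombined arrays lie below all kidney arrays for 8 genes and above them for Cldn5, while the Ehd3 points overlap those of E13.

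Of the VEGF receptors, Kdr kept a near-constant level through kidney development and was lower in culture. Its signal was 7641, 7581 and 8322 at E13, 7769, 10311, 9159 and 10361 at E18, 8556, 6930.3 and 9811 at Wk4, and 1429.5 and 4539 in recombined tissue. The 3 kidney stages overlapped, and both recombined arrays were below all 10 kidney arrays, replicate 2 less far than replicate 1. In limma the stage differences of Kdr on the log2(signal + 271) scale were 0.24 ± 0.25 (SE) for E18 minus E13 (adjusted p = 0.561) and -0.16 ± 0.25 for Wk4 minus E18 (adjusted p = 0.628). The E13 mean of 7848 ± 412 (SD, n = 3) was 5.49-fold above recombined replicate 1 and 1.73-fold above replicate 2. A further Kdr probe set was below the filter, at 20.5 to 345 on all arrays, and gave no usable level.

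Flt1 has 3 probe sets, which did not read the culture alike. The brightest gave 1627, 1355 and 1013 at E13, 1089, 2181, 849 and 964 at E18, 1673, 2201.5 and 1934 at Wk4, and 525 and 570.3 in recombined tissue, so both recombined arrays were below every kidney array. The others did not part them from the embryonic kidney. The first of these gave 529, 642 and 702 at E13 against 661 and 482 in recombined tissue, and the second 308, 459 and 490.2 against 379.9 and 421. The low Flt1 level in culture rests on 1 of 3 probe sets, by 2.43-fold, against ratios of E13 to recombined tissue of 1.09 and 1.05 for the others. At Wk4 the first of these gave 1185, 999.9 and 1008, above all 7 embryonic arrays, and the second gave 765, 901 and 887, which overlap the E18 range of 355 to 883. For the brightest probe set the Wk4 minus E18 difference was 0.58 ± 0.24 (limma, adjusted p = 0.0526).

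Tek, the receptor for angiopoietins, was level in the embryo, high after birth and low in culture. Its signal was 4012.5, 3621 and 4737 at E13 and 4179.5, 4694, 4065 and 4695 at E18, then 10870.3, 12889.7 and 12328 at Wk4. Recombined tissue gave 297 and 502. The embryonic stages overlapped, the Wk4 arrays stood above both, and the recombined arrays were below all 10 kidney arrays. The Wk4 minus E18 difference was 1.39 ± 0.14 (limma, adjusted p = 8.13e-07), short of the 3-fold that a call needed. The means were 4123 ± 566 (SD, n = 3) at E13, 12029 ± 1042 (SD, n = 3) at Wk4 and 399 ± 144 (SD, n = 2) in recombined tissue, at the 25.7th and 33.1st percentile of its arrays. The fitted difference of recombined tissue from E13 was -2.72 ± 0.17, with the smallest SE of the 10.

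Tie1, which pairs with Tek, had lower signals and a wide spread in the embryo. It read 3115, 1309 and 1401 at E13, 3526, 3254, 3465 and 1974 at E18, 4654, 3175 and 4034 at Wk4, and 536 and 732 in recombined tissue. The arrays of set 1 were the higher ones at both embryonic stages: E13 replicate 1 was 1.06 above replicates 2 and 3 on the log2 scale, and E18 replicate 4 was the lowest of its group. The E18 minus E13 difference of 0.65 ± 0.26 (limma, adjusted p = 0.0987) was 0.12 within set 1 and 0.47 within set 2. Wk4 was 1.01 ± 0.28 above E13 (adjusted p = 0.00558), under 3-fold. In culture both arrays were below every kidney array, and the E13 mean was 3.06-fold higher; without E13 replicate 1 the log2 difference of -1.21 ± 0.31 became -0.85.

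Plvap, the diaphragm protein of fenestrated capillaries, was the gene furthest below E13 in culture. Its signal was 9789, 6241 and 7002 at E13, 8109, 7398, 6670.1 and 5799.7 at E18, 17362, 16979 and 19631 at Wk4, and 173 and 1065 in recombined tissue. The embryonic stages overlapped (E18 minus E13, -0.11 ± 0.27; limma, adjusted p = 0.824), and all 3 Wk4 arrays were above all 7 embryonic arrays. The difference of 1.34 ± 0.27 from E18 to Wk4 (adjusted p = 0.000787) was past the p threshold and under 3-fold. In recombined tissue the fitted difference from E13 was -3.34 ± 0.33, and replicate 2 was 7.21-fold below the E13 mean; replicate 1, at 173, is too dim for an exact fold. On its arrays Plvap went from the 87.0th to 92.3rd percentile of all probe sets at E13 to the 17.6th and 51.0th in culture.

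Emcn, the sialomucin endomucin of capillary and venous endothelium, followed the mean of the 9 genes most closely. It read 7511, 5718 and 8325 at E13, 10166, 10042, 9666 and 9092 at E18, 13465, 12026 and 14610.0 at Wk4, and 959 and 3476 in culture. The kidney stages did not overlap and were in ascending order, but the fitted steps of 0.44 ± 0.26 from E13 to E18 (limma, adjusted p = 0.279) and 0.44 ± 0.26 from E18 to Wk4 (adjusted p = 0.172) were not past the threshold. From E13 to Wk4 the difference was 0.88 ± 0.28 (adjusted p = 0.0139). The E13 mean was 7.49-fold above recombined replicate 1 and 2.07-fold above replicate 2.

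Pecam1 (CD31), the adhesion molecule most used to stain endothelium, had the smallest difference from E13 among the 8 genes below every kidney array. Against E18 that of Flt1 was smaller, and against Wk4 those of Flt1 and Kdr were smaller. It read 2407, 1336 and 1606 at E13, 3224, 3962, 3683 and 3064 at E18, 3347, 4834 and 4369.6 at Wk4, and 695 and 1335 in recombined tissue. Recombined replicate 2 lay just under the lowest E13 array, so it all but touches the E13 range. E18 was 0.90 ± 0.21 above E13 (limma, adjusted p = 0.00677), with 0.54 within set 1 and 0.94 within set 2, and Wk4 was 1.14 ± 0.22 above E13 (adjusted p = 0.000448). Neither reached 3-fold.

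Sox17, a transcription factor of arterial endothelium, had 1 usable probe set of 3, since the others lay at 38.2 to 455 and did not pass the filter. It read 2865.5, 2549 and 3228 at E13, 3142, 4360.3, 3560.0 and 3893 at E18, 4533, 4335 and 3660.0 at Wk4, and 414 and 1262 in culture. Neighbouring kidney stages overlapped, and no stage difference passed the test, the largest being 0.50 from E13 to Wk4 (limma, adjusted p = 0.0791). The E13 mean of 2881 ± 339 (SD, n = 3) was 2.28-fold above recombined replicate 2, and the fitted difference was -1.62 ± 0.26.

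Ehd3, an endocytic recycling protein known from glomerular endothelium, was the gene that rose most during kidney development. Its signal was 438, 82.2 and 132 at E13, 676.5, 1458, 1372 and 1197.5 at E18, 3083, 3376 and 3292 at Wk4, and 123.5 and 96.1 in recombined tissue. The 3 kidney stages did not overlap, and the recombined arrays lay within the E13 range. Ehd3 rose by 1.60 ± 0.25 from E13 to E18 (limma, adjusted p = 0.000374), just past 3-fold on a scale that understates changes from dim signals, and by 2.92 ± 0.27 from E13 to Wk4 (adjusted p = 2.69e-07). Within set 1 the E18 difference was 0.97 (adjusted p = 0.0980) and within set 2 it was 1.96 (adjusted p = 0.00281), each with 1 array on a side whose spread is taken from the other groups. E13 and recombined signals were at or below the 35.9th percentile of their arrays, and the deposited values carry no detection call. Without E13 replicate 1 the recombined minus E13 difference of -0.29 ± 0.30 was 0.01. The fitted difference of recombined tissue from Wk4 was -3.21, and its dim signals allow no exact fold. Ehd3 passed the filter on low signals through E18 and Wk4, the stages where it is high, so its tests against E13 support nothing by themselves.

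Cldn5 took the opposite course after E18 and in culture. Its signal was 6244, 3837 and 6092 at E13, 10190.4, 10411, 9509 and 9680.0 at E18, 2826, 1382 and 2228 at Wk4, and 37047 and 28787 in recombined tissue. No groups overlapped, with Wk4 lowest and recombined tissue highest. Cldn5 fell by 2.13 ± 0.20 from E18 to Wk4 (limma, adjusted p = 4.6e-07), past 3-fold, and was 0.88 ± 0.20 higher at E18 than at E13 (adjusted p = 0.00595), under 3-fold, with 0.66 within set 1 and 0.96 within set 2. The recombined mean of 32917 ± 5841 (SD, n = 2) was 6.11-fold above E13, 3.31-fold above E18 and 15.3-fold above Wk4. In the culture the probe set was at the 98.5th and 98.9th percentile of its arrays, against the 79.2nd to 86.7th at E13.

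**Figure D2:**
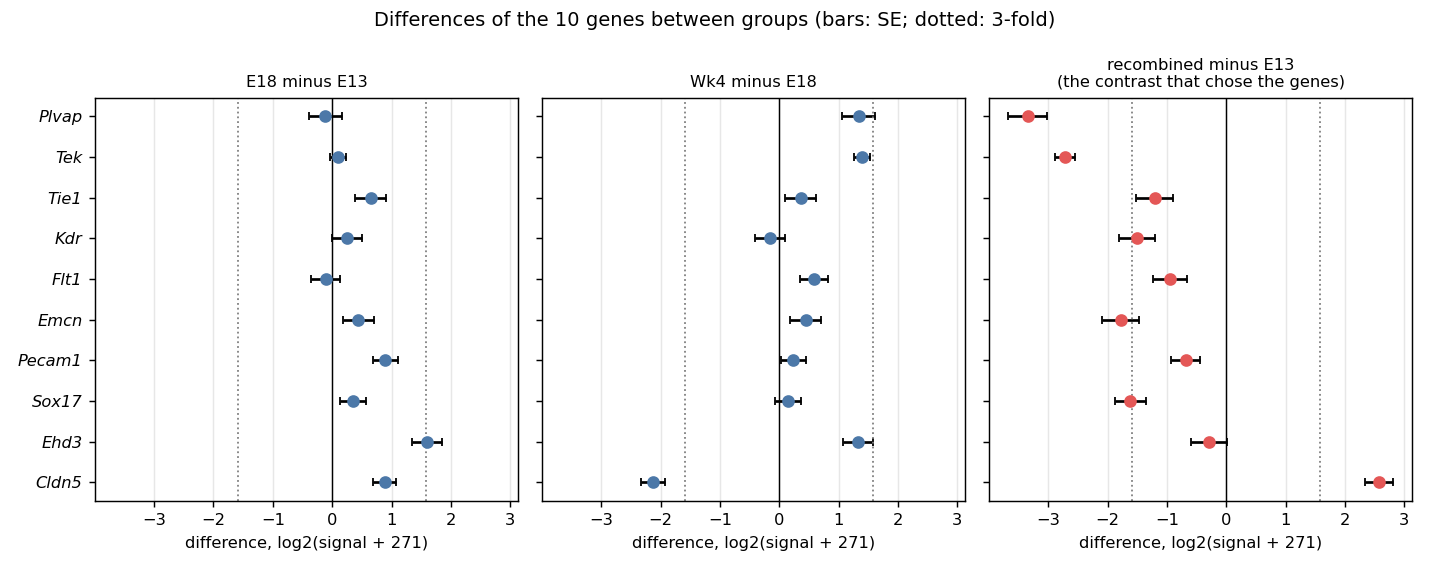
Differences between groups for the 10 genes on the log2(signal + 271) scale, with bars for the SE and dotted lines at 3-fold. Ehd3 from E13 to E18 and Cldn5 from E18 to Wk4 are past 3-fold in the kidney, and the right panel shows the contrast by which the genes were chosen, without a test.

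Counted over the kidney stages, few of the 10 genes made a call (adjusted p under 0.05 and at least 3-fold), and more passed the p threshold alone. From E13 to E18, 1 of 10 was called (Ehd3, higher) against 1.94% called higher of all 22599 probe sets. Since Ehd3 was kept only through the stages where it is high, this count supports nothing by itself. By the p threshold 3 passed (Ehd3, Pecam1 and Cldn5, all higher; 12.7% of all were higher by this rule). From E18 to Wk4, 1 of 10 was called (Cldn5, lower) against 5.43% of all called lower, and a count of 1 in 10 is near that background. Here 3 were higher by the p threshold (Plvap, Tek and Ehd3; 22.2% of all) and 1 lower (Cldn5; 32.6% of all). From E13 to Wk4, 1 of 10 was called (Ehd3, higher) against 9.4% of all called higher, which is near that background. By the p threshold 6 were higher (Plvap, Tek, Tie1, Emcn, Pecam1 and Ehd3, against 26.2% of all) and 1 lower (Cldn5, against 34.4% of all). For the reason given above, the call of Ehd3 and its place among the 6 support nothing by themselves. The median difference of the 10 was 0.39, 0.40 and 0.95 in these comparisons, against -0.02, -0.12 and -0.11 over all probe sets. These comparisons share groups, and the arrays of all 3 stages also entered the contrasts with the culture by which the genes were chosen. The 3-fold call of Ehd3 at E18 was lost under several alternatives, among them array centring (1.51) and the array set as a covariate (1.44), and the adjusted p in limma was at most 0.00378 in every alternative run other than set 1 alone.

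Against E13 the recombined differences ran from -3.34 (Plvap) through -2.72 (Tek), -1.78 (Emcn), -1.62 (Sox17), -1.50 (Kdr), -1.21 (Tie1), -0.95 (Flt1), -0.69 (Pecam1) and -0.29 (Ehd3) to 2.57 (Cldn5). Their median was -1.36, or -1.78 in replicate 1 alone and -0.94 in replicate 2 alone, against -0.00 over all probe sets. Against E18 the same genes ran from -3.23 (Plvap) to -0.84 (Flt1), with Ehd3 at -1.89 and Cldn5 at 1.69. Against Wk4 they ran from -4.57 (Plvap) to -1.43 (Flt1), with Ehd3 at -3.21 and Cldn5 at 3.82. Of all probe sets, 5.58% had both recombined arrays below all 10 kidney arrays and 10.2% had both above; since the rule used this contrast, nothing is read from the 8 and 1 of the 10 genes.

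**Figure D3:**
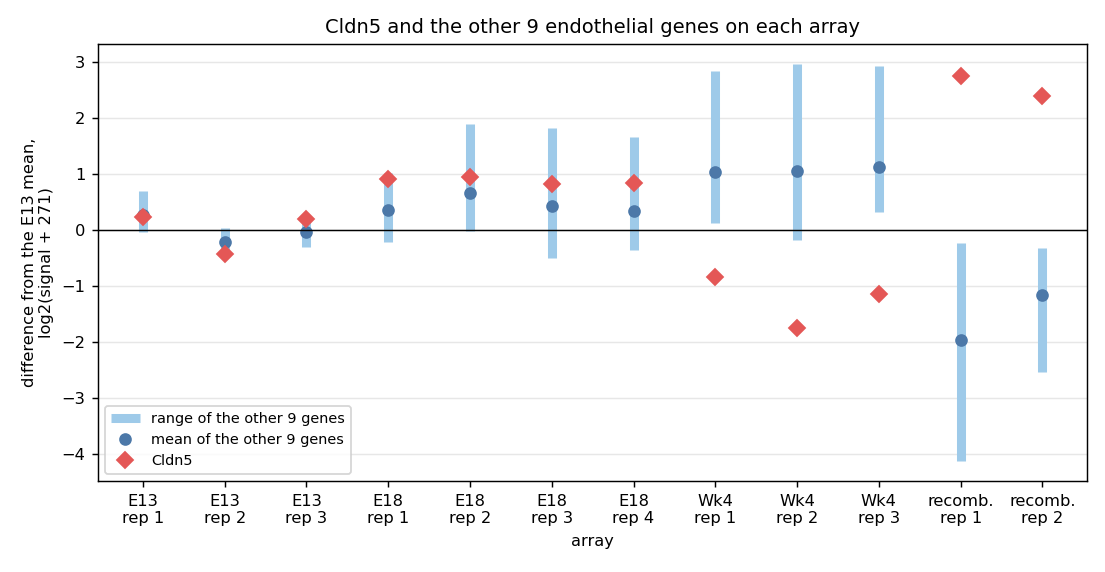
Difference of Cldn5 (diamonds) and of the other 9 genes (dots, mean; bars, range from lowest to highest gene) from their E13 means on each array, log2(signal + 271). Cldn5 lies below the whole range of the others on all Wk4 arrays and above it on both recombined arrays.

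Set against the other 9 genes array by array, Cldn5 lay near them in the embryo and apart from them at Wk4 and in culture. Relative to the E13 means, Cldn5 minus the mean of the other 9 was -0.21 to 0.24 on the E13 arrays and 0.29 to 0.56 on the E18 arrays. At Wk4 it was -2.81 to -1.88, with the other 9 at a mean of 1.04 to 1.13 and Cldn5 at -1.75 to -0.84. In recombined tissue it was 4.73 in replicate 1 and 3.55 in replicate 2, the others being at -1.97 and -1.16. The genes were chosen by their signal in culture, so this gap is a description. The Cldn5 signal in culture was outside the range of the 10 kidney arrays, on the side away from Wk4. A fall from E18 to Wk4 was not particular to Cldn5 among endothelial genes. Of 74 other endothelial genes in the lists below, 36 were lower and 11 higher by the p threshold (32.6% and 22.2% of all). Their median difference was -0.53, against -0.12 over all probe sets.

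The 2 recombined arrays differed from each other in most of the genes. On the log2(signal + 271) scale replicate 1 minus replicate 2 was -1.61 for Emcn, -1.59 for Plvap, -1.50 for Kdr, -1.16 for Sox17, -0.73 for Pecam1, -0.44 for Tek and -0.31 for Tie1. It was -0.08 for Flt1, 0.10 for Ehd3 and 0.36 for Cldn5. The median log2 difference of replicate 1 minus replicate 2 was -0.73 over the 9 genes without Cldn5 (8 of 9 lower), -0.18 over 74 other endothelial genes (46 lower) and -0.06 over all probe sets (55.5% lower). Other lists were lower in replicate 1 as well, with 11 of 12 erythroid genes (median -0.24) and 16 of 19 claudin and tight junction genes (median -0.25). The macrophage list was higher there, with a median of 0.91 and 1 of 16 genes lower. The part of these lists in the result was not tested, and 2 arrays allow no test of what sets them apart.

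Some other endothelial genes were also lower in culture than at E13. Of 87 genes in 4 lists, 81 were on the array by symbol and 74 passed the filter, and 9 were called lower and 4 higher in recombined tissue against E13. These are 12.2% and 5.41% of the 74, against 0.912% and 3.95% of all probe sets. By the p threshold alone 26 were lower and 13 higher (15.2% and 15.9% of all), and the median of the 74 was -0.32. Without recombined replicate 1 the call counts were 5 lower and 6 higher, and without E13 replicate 1 they were 6 and 5. Centring each array on its median moved the split over all probe sets from 892 higher and 206 lower to 705 and 318, with a median shift to -0.20. It moved the lists' split to 11 lower and 4 higher. Against Wk4, 11 of the 74 were called lower and 7 higher, with a median of -0.20. Of all 22599 probe sets 1654 were lower and 1781 higher in that comparison, with a median of 0.19. Some genes called lower against E13 were also low at Wk4. Means at Wk4 and in culture were 2396 and 3118 for Fli1, 1333 and 1154 for Hey2 and 1415 and 1444 for Ecscr. In the other genes called lower the Wk4 mean stood further above that in culture, as for Ptprb (10255 and 519).

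Surface and junction genes made up most of the calls, with 6 lower and 3 higher of 32 (median -0.56). Ecscr, an endothelial chemotaxis receptor, was at -2.01 ± 0.34, and Ptprb (VE-PTP), the phosphatase that acts on Tek, was at -1.62, with a mean signal of 2085 at E13 and 519 in culture. Ptprb was called higher at Wk4 than at E18, by 1.78. It was the only 1 of the 74 called higher in that comparison, and 5 were called lower. Of all 22599 probe sets, 1302 were called higher and 1228 lower there. Clec14a (-1.88), Adgrf5 (-1.70), Ramp2 (-1.65) and Egfl7 (-1.65) were the other lower calls. The 3 higher calls were Fabp4 (4.41 ± 0.40), a fatty acid binding protein shared with adipocytes and macrophages, Cav1 (2.96 ± 0.29), the caveolin of many mesenchymal cells as well, and Stab1 (2.46 ± 0.21), a scavenger receptor that macrophages also carry. Fabp4 (2.70), Cav1 (2.16) and Cav2 (2.14) were also called higher at E18 than at E13, at 2.98 and 2.33, 2.06 and 2.12, and 2.10 and 2.29 within sets 1 and 2.

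Of 17 transcription factors, 1 was called lower and 1 higher (median 0.07), against 0.912% and 3.95% of all probe sets. Counts of 1 among 17 genes are too small to be read as a result. Fli1, an ETS factor, was lower at -1.59, from a mean signal of 9919 at E13 to 3118 in culture, and Klf4, a flow-responsive factor that macrophages and epithelia also use, was higher at 1.91 ± 0.17. Sox18, from the same family as Sox17, was at -1.36, and the ETS factor Erg at -0.86, both under 3-fold. From E13 to E18 none of the 17 was called, with Ets2 (1.32) and Klf2 (1.15) the furthest, and 3 were higher and 1 lower by the p threshold of limma (12.7% and 7.03% of all). Of the arterial, venous and lymphatic genes, 2 of 16 were lower, namely the apelin receptor Aplnr (-2.91 ± 0.29), with signals of 37.6 and 235 in culture against 2166 to 3036 at E13, and the Notch target Hey2 (-1.79). The lymphatic receptor Lyve1, also found on macrophages, and the Notch target Heyl were called higher at E18 than at E13, by 2.29 and 1.78. Heyl was at 0.83 within set 1, under 3-fold, and 1.87 within set 2, and Lyve1 at 2.32 and 2.05.

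The ligands and co-receptors of the VEGF and angiopoietin systems were not lower as calls in culture, with 0 of 9 called either way in limma. By adjusted p under 0.05 alone 3 were higher and 1 lower, against 15.9% and 15.2% of all probe sets. Vegfa, the ligand of Kdr and Flt1, was at 1.24 ± 0.29 from E13, with 11958 and 9712 in recombined tissue against 3338 to 6151 at E13. The co-receptor Nrp2 was at 1.47 ± 0.25. Vegfd was called higher at E18 than at E13 by 2.10 (1.64 and 2.66 within sets 1 and 2), and Pgf was at -1.53, short of 3-fold. Both Vegfa signals in culture lay above every E13 array and within the E18 range of 7223 to 16813.

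**Figure D4:**
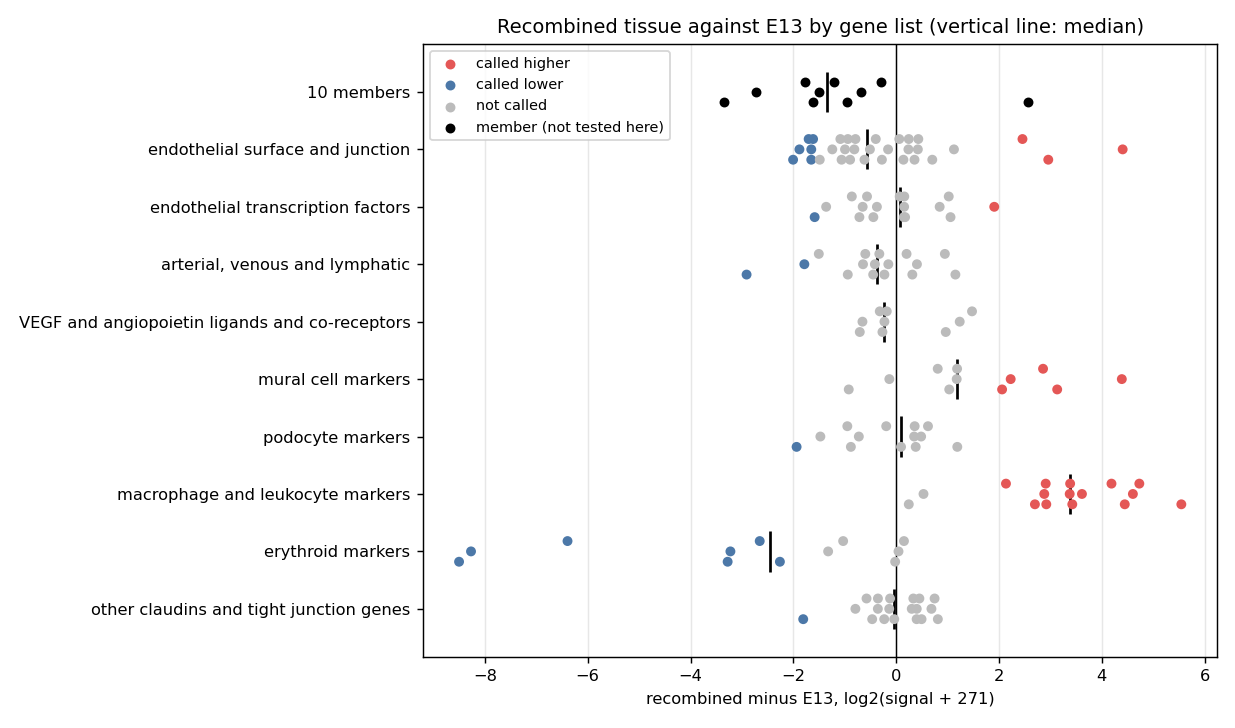
Recombined minus E13 difference, log2(signal + 271), of each tested gene by list, with the median as a vertical line. Black points are the 10 genes, not tested here; red and blue points were called higher and lower, and the macrophage list has the highest median (3.38).

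Markers of other cell types also differed between the groups, some lists in the direction of these genes and others against it. The 9 genes without Cldn5 summed to a signal of 29794 to 39405 at E13, 41039 to 47661 at E18, 66747 to 73670 at Wk4 and 5152 to 13576 in recombined tissue. Erythroid genes, whose cells come with the blood, summed to 322048 to 405868, 204529 to 235706, 93464 to 125970 and 3009 to 4955 in the same order. In culture against E13, 7 of 12 were called lower and 0 higher, the embryonic globins Hbz (-8.50) and Hbg1 (-8.27) furthest. These 2 globins were also lowest at E18 against E13 (-5.81 and -4.66). Hbb went the other way, with means of 6044 at E13 and 149723 at E18, and was called higher by 4.57. The median erythroid gene, relative to E13, was at -0.14 to 0.72 on the E18 arrays and -0.80 to 0.03 at Wk4. In culture it was at -2.62 to -2.30, and the sum does not show the course of this median gene in the kidney. Macrophage and leukocyte genes summed to 9588 to 13291, 26736 to 31940, 98133 to 108469 and 156266 to 287617, with 14 of 16 called higher, Lyz2 (5.55) and Adgre1 (4.73) furthest. Much of their Wk4 sum was Cd74 and Lyz2, with means of 50846 and 27897 at Wk4. Their median gene, relative to E13, was at 0.83 to 0.98 on the Wk4 arrays and 2.68 to 4.01 in culture. From E13 to E18 Lyz2 was called higher by 2.47 and C1qa was at 1.29, under 3-fold. Mural cell genes, of the smooth muscle and pericytes around vessels, summed to 24630 to 46090, 30325 to 57957, 20186 to 26833 and 130822 to 197020, with 5 of 11 called higher, among them Myh11 (4.39) and Cnn1 (3.13); from E13 to E18 Abcc9 was called higher by 1.59 and Kcnj8 was at 0.83. Rgs5, the pericyte marker, was at 1440 and 1086 in culture against 2278 to 3222 at E13. Podocyte genes, from the cells that face the glomerular endothelium, summed to 145004 to 153516, 167920 to 180985, 55433 to 63330 and 60286 to 76117, with 1 of 13 called lower (Cdkn1c, -1.94) and Foxc2 at -1.48. Cdkn1c alone had mean signals of 93044 at E13, 12562 at Wk4 and 24372 in culture, all within that sum. The median gene of the list, relative to E13, was at 0.34 to 0.74 on the Wk4 arrays and 0.05 to 0.09 in culture, which the sum does not show. From E13 to E18 the slit diaphragm gene Nphs1 (3.05) and Ptpro (1.91) were called higher. No deposited value was 0 on any array, and the part of these lists in the results on the 10 genes was not tested.

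Since Cldn5 is a claudin, the other tight junction genes were read beside it. Of 19 tested, 0 were called higher and 1 lower (Cldn6, -1.81; Cldn7 was next at 0.81, not called) in recombined tissue against E13, with a median of -0.04. From E13 to E18 7 were called higher and 0 lower (median 1.22), against 1.94% of all probe sets called higher. Cldn8 (2.34) and Cldn2 (2.32), claudins of collecting duct and proximal tubule, were the furthest. Cldn2 kept a signal of 336 and 231 in culture against 202, 238 and 34.1 at E13. High signal in culture against E13 was thus seen for Cldn5 and called for none of these 19. By the p threshold of limma 2 of the 19 were higher and 2 lower than at E13 (15.9% and 15.2% of all). Against Wk4, 1 of the 19 was called higher and 8 lower. Cldn11 had means of 4746 at E13, 10086 at E18, 966 at Wk4 and 6063 in culture.

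Likeness of course over the 12 arrays was measured as the root mean square difference between centred log2 values, over 11800 other genes. To the mean of the 9 genes the nearest were Dhrs4 (0.23), Arhgef15 (0.25), Bmp7 (0.25), Net1 (0.26) and Rassf7 (0.27), against a median of 1.01. Among the 9 themselves the value was 0.23 for Emcn, 0.28 for Sox17, 0.32 for Tie1, 0.34 for Pecam1, 0.46 for Kdr, 0.53 for Flt1, 0.54 for Tek, 0.69 for Plvap and 0.72 for Ehd3, each of which is part of that mean. Cldn5 was at 2.08. To Cldn5 the nearest were Col5a2 (0.29), Flnc (0.35), Lgals1 (0.36), Stab1 (0.36) and C1h11orf24 (0.38), against a median of 1.29. All of these had their highest group mean in recombined tissue and their lowest at Wk4. For Col5a2, a fibrillar collagen chain, the means were 68249 and 7503. The 12 arrays include the recombined ones by which the genes were chosen. The distance of Cldn5 from the 9 and the course of its nearest genes follow in part from that choice, and are a description.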

How the data were processed

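Biotinylated cRNA from total RNA was hybridised to Affymetrix arrays. The authors deposited 1 intensity per probe set, on a linear scale. The submitters' processing notes name GCOS. No version or algorithm is given in the sources used here. The mean without the lowest and highest 2% was 2501 on each array. Arrays had thus been scaled alike, which would hide a change in total RNA per cell. Values ran from 0.447 to 318614 and carry no detection calls.

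The 57 control probe sets were left out. Values were used as log2(signal + 271), 271 being the 25th percentile of all values, which shrinks the differences of dim probe sets. A probe set was kept (22599 of 31042) if at least 2 arrays had it above their 40th percentile. Gene names came from the platform annotation: 1 symbol was given for 20826 probe sets, several for 436 and none for 9780, and the gene ID of 20758 was found in the current rat annotation. A gene's main probe set was its kept one with the highest mean. Promoters and their coordinates are from RefSeq on GRCr8, and no genome build is named for the arrays.

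A single limma 3.58.1 model (R 4.3.3; lmFit, then eBayes with trend) held the 12 arrays and 4 group means, leaving 8 residual degrees of freedom. P-values were two-sided and adjusted by Benjamini-Hochberg over all 22599 probe sets. Calls required an adjusted p below 0.05 together with a 3-fold difference, the fold of the study's design. Steps were tested on simulated arrays. The text names the 10 genes with every probe set, and of each list the 2 genes furthest from 0 in recombined tissue against E13 and in E18 against E13; other list genes are examples. The genes and lists were chosen with earlier results of these data known. Same-numbered replicates were checked for pairing: over 15 pairs the correlation of deviations ran from -0.17 to 0.31, with 1 over 0.1, so the numbers were not taken as pairs. Alternatives covered the pseudocount, normalization, filter, replicates, block, array sets, probe set and fold.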

Additional observations from a re-analysis of the deposited data

Results flagged for a closer look

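Within the group of 4 E18 arrays, the Tie1 signal of replicate 4 stood away from the other 3: it was 1974 against 3254 to 3526, a gap of 0.859 of the group's whole range, above the 95% critical value of Dixon's test. The other 9 genes had no such array among the E18 arrays; about 1 in 20 groups would pass this by chance, and 10 were looked at. E18 replicate 4 is also the E18 array of set 2, and this was not tested as a cause.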

How the results depend on the processing

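The count of the 10 genes called from E13 to E18 was 1 (Ehd3), and 0 with 4 times the pseudocount, quantile normalization, median centring, the array set as a covariate, the replicate number as a block, or within set 1 (an alternative chosen after seeing the data, as was set 2, where it was 1). Leaving out each array of the groups compared (others were not left out here) gave 0 to 1 there, 0 without E13 replicate 2 or 3 or E18 replicate 2, 3 or 4; 1 to 1 for Wk4 against E18, and 1 to 2 for Wk4 against E13, 2 without E13 replicate 3 (Tek, 1.59). At 2-fold the counts were 4 for Wk4 against E18 and 6 for Wk4 against E13. For other endothelial genes the count of 13 in recombined tissue against E13 was 4 with 4 times the pseudocount and 25 at 2-fold, and 11 to 14 leaving out each array. The count of 6 from E13 to E18 was 3 and 16, and 5 to 7. These were 6 higher and 0 lower, or 8.11% higher, against 1.94% of all probe sets. The count of 6 from E18 to Wk4 was 11 with no pseudocount, 1 and 28, and 7 to 8. These were 1 higher and 5 lower, and the 6.76% lower is near the 5.43% of all called lower. The median of the 10 genes in recombined tissue against E13 stayed negative, from -1.78 to -0.92 over all alternatives and -1.78 to -0.94 leaving out each array. With the replicate block the counts of other endothelial genes were 12, 6 and 8; the numbers do not pair the samples. Uncalled differences changed sign when arrays were left out: from E13 to E18, Plvap ran from -0.25 to 0.068 (without E13 replicate 1) and Flt1 from -0.36 to 0.021 (without E13 replicate 1 or E18 replicate 3), and from E13 to Wk4 Kdr ran from -0.025 (without Wk4 replicate 3) to 0.22. The group of 2 recombined arrays and the dim signals of Ehd3, with no background measure in the files, limit all values for the culture.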
